A study of Mus musculus with 4 samples.

Results

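Merkel cell genes were examined in whole skin of mouse embryos with and without overexpression of the zinc finger transcription factor Ovol2 in the epidermis. The set holds 8 genes, Atoh1, Sox2, Isl1, Krt20, Piezo2, Insm1, Gfi1 and Pou4f3, of 19938 genes with a probe set of their own on the array. Members were found by symbol in the platform annotation, each through the probe set that names that gene alone and has the highest mean over the 4 arrays, and all 8 had a value. The skin was female and taken at E17.5 (E for embryonic day), with RNA of 2 mice on each array. The control group (2 arrays, strain given as CB6F1) carried TRE-Ovol2-Flag, a tetracycline-responsive Ovol2 transgene with a Flag tag, or was wild type. The Ovol2 BT group (2 arrays, strain given as FVB/N) carried TRE-Ovol2-Flag together with K5-tTA, in which the keratin 5 promoter of basal keratinocytes drives the transactivator that switches the transgene on. The labels call the mice littermates while giving different strains, so by the labels strain and genotype cannot be told apart. They call the arrays biological replicates. Because the skin was not separated into layers, RNA of dermis, nerve, fat and muscle entered each array with that of the epidermis, and a smaller number of Merkel cells and less RNA per Merkel cell cannot be told apart.

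Merkel cells are touch receptor cells at the base of the epidermis and around hair follicles, where they contact slowly adapting sensory nerve endings. They arise from epidermal progenitors, which switch on the bHLH factor Atoh1 and then a programme that includes Sox2, Isl1, the zinc finger factors Gfi1 and Insm1, the POU factor Pou4f3, simple epithelial keratins such as Krt20, and the mechanically gated channel Piezo2. Mature Merkel cells hold dense-core granules and presynaptic proteins. Hedgehog, ectodysplasin, Wnt, FGF and BMP signals act on their formation in skin, and Polycomb repressors and Notch signalling restrain it.

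Median deposited intensities lay between 123 and 132 on the 4 arrays. Ovol2, the check of the labels, read 360 and 161 in control skin and 4367 and 3893 in Ovol2 BT. Differences are given as Ovol2 BT minus control on the scale of log2(intensity + 16), which understates changes of dim genes. They were tested with limma across the 14953 genes left after the 25% with the lowest mean level were removed, and a gene was called at a Benjamini-Hochberg adjusted p under 0.05. Of all genes tested 0.963% were called, 0.615% higher and 0.348% lower in Ovol2 BT. The files hold no detection calls, and an intensity is compared below with that of the same gene on other arrays only.

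None of the Merkel cell genes passed the test. On simulated data the test called 1.7% of 1.5-fold and 28.2% of 2-fold changes. The filter kept 6 of the 8 members, of which limma called 0 against 0.963% of all genes. At an unadjusted p under 0.05, 1 of the 6 differed, Sox2, against 10.4% of all genes. Krt20 and Pou4f3 lay below the filter, whose limit was an intensity of about 67.4, and are described from a fit without it. Of the 8 members 6 had lower and 2, Isl1 and Insm1, had higher values in Ovol2 BT, with Isl1 marginally lower under quantile normalization (-0.041). The median of the 8 log2 differences was -0.22. Over the 6 tested members the median was -0.17, against -0.04 over all genes tested. Values lower in both Ovol2 BT arrays than in both controls were found for 1 of the 6 tested members, Sox2, against 21.9% of all genes tested, and values higher in both for 1 of the 6, Insm1, against 20.4%.

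**Figure D1:**
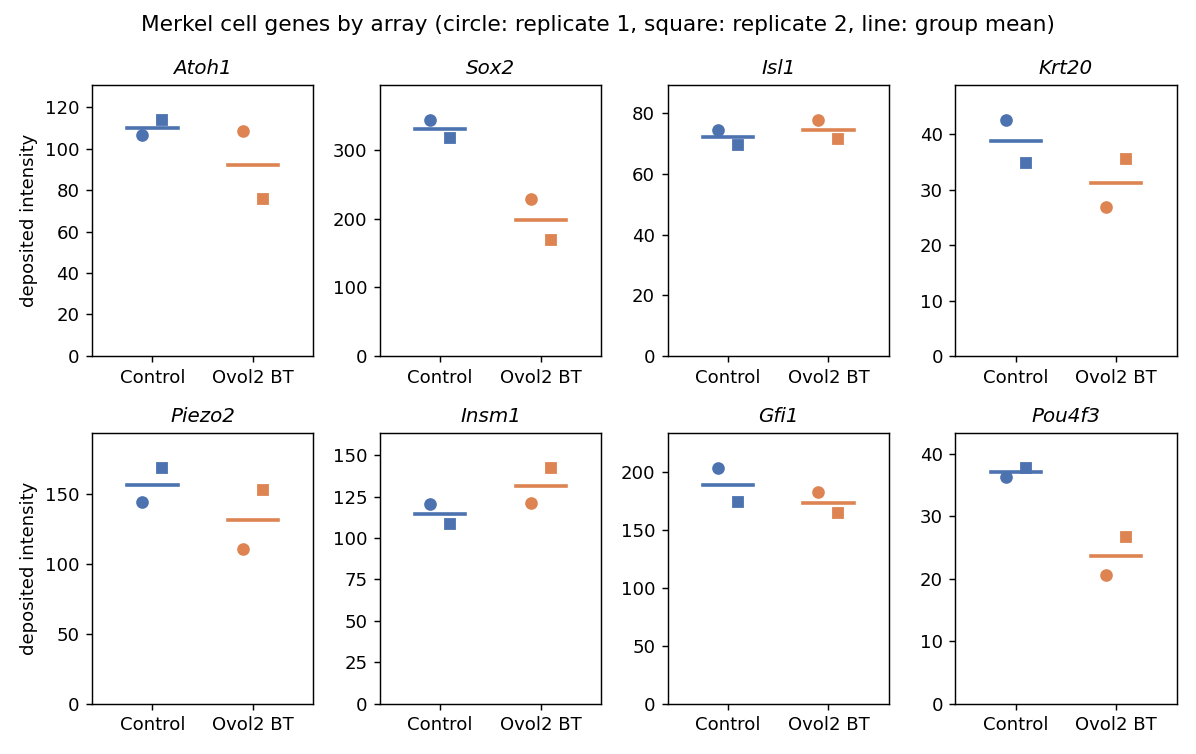
Deposited intensity (linear, each vertical axis from 0) of the 8 Merkel cell genes in control (blue) and Ovol2 BT (orange) skin, with 1 point per array and a line at the mean of the 2 arrays of a group. Sox2 and Pou4f3 are lower in both Ovol2 BT arrays than in both controls, Insm1 is marginally higher in both, and the groups overlap for the other 5 genes.

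Sox2, a high mobility group factor that with Isl1 sustains Atoh1 in Merkel cells, had the largest difference among the members. Its intensity was 344 and 319 in control skin, against 228 and 169 in Ovol2 BT. Both Ovol2 BT arrays were below both controls, and the second was the lower of them. The log2 difference was -0.71 (SE 0.22, 95% interval -1.20 to -0.21, 1.63-fold lower, limma adjusted p = 0.285, 2 arrays per group), so the gene did not pass the test over all genes. Without Ovol2 BT replicate 2 it was -0.51 and without Ovol2 BT replicate 1 it was -0.91. The 250 bases before the RefSeq start of Sox2 (GRCm38.p6, chr3:34649745-34649994, + strand) are shown because this gene had the widest gap among the members.

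Sox2: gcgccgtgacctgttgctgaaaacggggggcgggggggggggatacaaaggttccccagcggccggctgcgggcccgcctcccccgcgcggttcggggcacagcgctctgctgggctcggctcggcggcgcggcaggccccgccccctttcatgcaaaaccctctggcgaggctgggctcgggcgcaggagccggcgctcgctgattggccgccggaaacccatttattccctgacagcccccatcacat

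The window held none of 3 short motifs searched on both strands. These were CCGTTA, the core bound by Ovol factors, found in 2.18% of 32851 promoter windows of the same length, and the E-boxes CAGCTG (13%) and CAGATG (14.4%), of the kind that bHLH factors such as Atoh1 bind. Missing letters say nothing about binding elsewhere at the gene.

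Atoh1, which is needed for Merkel cells to form, showed no detectable difference. Its intensity was 106 and 114 in control skin, against 108 and 75.7 in Ovol2 BT. The first Ovol2 BT array lay within the controls' range and the second lay below it. The log2 difference was -0.24 (SE 0.19, 95% interval -0.66 to 0.18, limma adjusted p = 0.666). It rested on the second Ovol2 BT array, without which it was -0.020.

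Isl1, a LIM homeodomain factor and partner of Sox2 in these cells, was the flattest member. It stood at 74.5 and 69.6 in the controls and at 77.7 and 71.5 in Ovol2 BT, so the groups overlapped. The log2 difference was 0.041 (SE 0.14, 95% interval -0.28 to 0.36, limma adjusted p = 0.929). Its promoter window is printed because it alone among the 5 members with a printable RefSeq window held a searched motif, with the E-box CAGCTG in capitals starting 103 bases before the start (GRCm38.p6, chr13:116309689-116309938, - strand).

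Isl1: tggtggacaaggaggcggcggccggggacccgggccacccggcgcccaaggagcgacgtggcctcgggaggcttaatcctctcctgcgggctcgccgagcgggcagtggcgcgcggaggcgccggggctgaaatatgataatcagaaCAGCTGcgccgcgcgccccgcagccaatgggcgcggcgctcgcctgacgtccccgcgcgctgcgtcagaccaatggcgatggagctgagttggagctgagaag

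The zinc finger factors of the programme had small differences of either sign. Gfi1, a transcriptional repressor, stood at 204 and 174 in the controls and at 183 and 164 in Ovol2 BT, with overlapping groups (log2 difference -0.11, SE 0.19, limma adjusted p = 0.857). Insm1, a zinc finger factor of neuroendocrine differentiation, stood at 120 and 109 in the controls and at 121 and 142 in Ovol2 BT. The lower Ovol2 BT value exceeded the higher control by under 1 unit of intensity, and the difference did not pass the test (0.18, SE 0.17, limma adjusted p = 0.739).

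Pou4f3, which is best known from the hair cells of the inner ear and is also switched on in Merkel cells, was dim in all 4 libraries. Its intensity was 36.3 and 37.7 in control skin, against 20.5 and 26.6 in Ovol2 BT, so both Ovol2 BT arrays were below both controls. In the fit without the filter the log2 difference was -0.43 (SE 0.17, 95% interval -0.81 to -0.04, limma adjusted p = 0.476). The pseudocount bears on a gene this dim: the difference was -0.64 with 1 added and -0.21 with 64 added.

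The members that mark differentiated Merkel cells also showed no detectable difference. Krt20, a keratin that in epidermis marks Merkel cells, stood at 42.5 and 34.9 in the controls and at 26.9 and 35.6 in Ovol2 BT. The groups overlapped (log2 difference -0.21, SE 0.18, limma adjusted p = 0.703 without the filter). Piezo2, the channel through which Merkel cells and touch neurons sense force, stood at 144 and 169 in the controls and at 111 and 153 in Ovol2 BT, again overlapping (-0.23, SE 0.20, limma adjusted p = 0.700). The Piezo2 difference depended on the Ovol2 BT arrays, at -0.028 without replicate 1 of that group and -0.44 without its replicate 2. Piezo2 alone among the members had more than 1 probe set of its own. Its other probe sets gave log2 differences of -0.32 and -0.14, so all 3 had lower values in Ovol2 BT.

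Leaving out Sox2, the 95% intervals of the 5 other tested members lay within 1.62-fold in either direction on the log2(intensity + 16) scale. These bounds hold for the measured intensity, in which the share of background is not known.

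**Figure D2:**
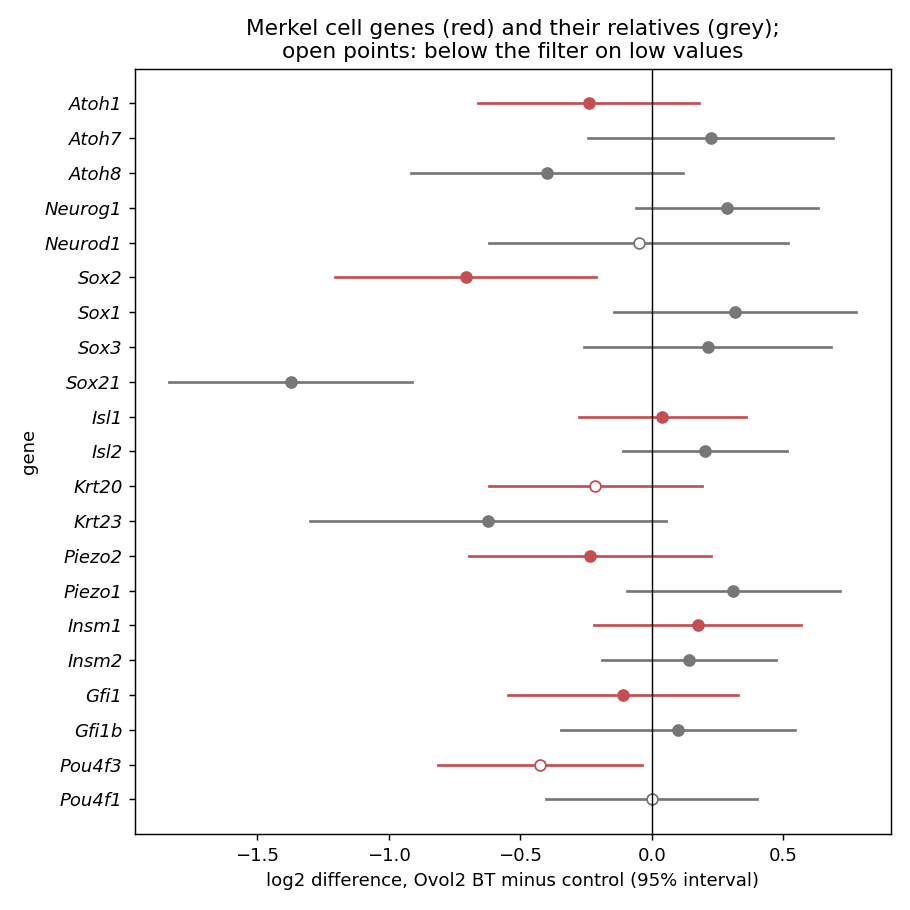
Log2 difference (Ovol2 BT minus control, horizontal axis) with its 95% interval from limma for the 8 Merkel cell genes (red) and 13 relatives (grey), ordered by family, with open points for genes below the filter on low values. The interval of Sox21 lies furthest below 0, from -1.83 to -0.91, and those of Sox2 and Pou4f3 also lie below 0, although neither was called.

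Relatives of the members were read beside them, to show whether a family moved as a whole. Of 14 relatives listed, 13 had a value and 11 were tested, with 0 called higher and 1 called lower, Sox21. Of all genes 0.615% were called higher and 0.348% lower. Of the 11 tested relatives 8 had higher and 3 had lower values, with a median of 0.20 against -0.04 over all genes. Values were higher without overlap for 7 of the 11, against 20.4% of all genes. They were lower without overlap for 2, against 21.9%. Sox21, a SoxB group repressor known from the hair shaft cuticle, stood at 516 and 560 in the controls and at 192 and 204 in Ovol2 BT. The groups were far apart, and Sox21 fell by 1.37 on the log2 scale (SE 0.20, 95% interval -1.83 to -0.91, 2.59-fold lower, limma adjusted p = 0.0166). The other SoxB relatives of Sox2 did not pass the test, with log2 differences of 0.32 for Sox1 (limma adjusted p = 0.618) and 0.21 for Sox3 (0.735).

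No relative of the members in the other families was called. The bHLH gene Atoh8 was at -0.40 (limma adjusted p = 0.586), Atoh7 at 0.22 (0.717) and Neurog1 at 0.29 (0.566). Piezo1, the related channel of many non-neural cells, was at 0.31 (limma adjusted p = 0.586). Krt23, a type I keratin like Krt20, was at -0.62 (limma adjusted p = 0.521), and its groups overlapped. Isl2 (0.20), Insm2 (0.14) and Gfi1b (0.098) were not called either. Neurod1 and Pou4f1 lay below the filter.

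Among the simple epithelial keratins of Merkel cells, Krt8 rose while its partners did not pass the test. Krt8, the type II keratin that pairs with the type I keratins Krt18, Krt19 and Krt20, stood at 448 and 351 in the controls and at 2181 and 1597 in Ovol2 BT. Both Ovol2 BT arrays lay several times above both controls, and Krt8 rose by 2.19 on the log2 scale (SE 0.24, 95% interval 1.65 to 2.73, 4.56-fold, limma adjusted p = 0.00497). Krt18 stood at 253 and 157 in the controls and at 237 and 119 in Ovol2 BT (log2 difference -0.22, SE 0.32, limma adjusted p = 0.820). Krt19 stood at 273 and 160 in the controls and at 194 and 134 in Ovol2 BT (-0.35, SE 0.28, limma adjusted p = 0.676). For both partners the first array of each group was the brighter, and the groups overlapped. With Krt20, the list thus had 1 of 3 tested genes called higher and 0 called lower, against 0.615% and 0.348% of all genes. Krt8 is also made by simple epithelia outside the Merkel lineage. Its promoter window (GRCm38.p6, chr15:102004343-102004592, - strand) is shown as that of the one keratin of the list that was called, and held none of the 3 motifs.

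Krt8: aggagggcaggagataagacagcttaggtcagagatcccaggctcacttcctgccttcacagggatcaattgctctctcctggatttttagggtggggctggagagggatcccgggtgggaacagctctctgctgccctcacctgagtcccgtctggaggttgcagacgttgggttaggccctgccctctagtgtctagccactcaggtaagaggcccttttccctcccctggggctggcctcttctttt

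Neuroendocrine and synaptic genes were counted as a further view of the differentiated cell. Besides genes of secretory granules and synapses, which Merkel cells share with neurons, the list holds others such as Epcam, Ncam1, Hes6, Tubb3 and Nefl. Of 44 listed genes 42 had a value and 30 were tested, with 0 called higher and 1 called lower. Of all genes 0.615% were called higher and 0.348% lower. The median log2 difference of the list was 0.11, against -0.04 over all genes. The called gene was Chga, which encodes chromogranin A, a core protein of dense granules. Chga stood at 297 and 235 in the controls and at 103 and 116 in Ovol2 BT, so both Ovol2 BT arrays were under both controls. It fell by 1.16 on the log2 scale (SE 0.20, 95% interval -1.61 to -0.71, 2.24-fold lower, limma adjusted p = 0.0327). Without Ovol2 BT replicate 1 its difference was -1.08 and the call ended (limma adjusted p = 0.0715).

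The 250 bases before the start of Chga (GRCm38.p6, chr12:102554691-102554940, + strand) are shown as those of the called granule gene. The E-box CAGCTG, in capitals, occurs in them 2 times, starting 179 and 116 bases before the start.

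Chga: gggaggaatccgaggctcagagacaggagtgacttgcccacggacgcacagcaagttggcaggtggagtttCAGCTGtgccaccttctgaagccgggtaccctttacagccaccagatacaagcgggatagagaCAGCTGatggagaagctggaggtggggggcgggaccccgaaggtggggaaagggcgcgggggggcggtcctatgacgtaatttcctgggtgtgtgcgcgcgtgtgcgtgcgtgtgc

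Of the 30 tested genes of the list 18 had higher and 12, Chga among them, had lower values (10 lower under quantile normalization and 9 under median centring). Chgb, the related chromogranin B, stood at 103 and 98.5 in the controls and at 125 and 155 in Ovol2 BT (log2 difference 0.41, SE 0.18, limma adjusted p = 0.463). The neuropeptide gene Cck was at 0.49 (limma adjusted p = 0.473) and the vesicular monoamine transporter gene Slc18a2 at 0.61 (0.473). The Slc18a2 difference was 0.26 without control replicate 1 and 0.97 without control replicate 2. All 3 were named for their small p, had higher values in both Ovol2 BT arrays than in both controls, and did not pass the test. Of the 30 tested genes 12 were higher without overlap, against 20.4% of all genes. A further 5, Chga, Cacna1d, Npy, Epcam and Ncam1, were lower without overlap, against 21.9%. Of these Epcam is also on the list of general epithelial markers.

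**Figure D3:**
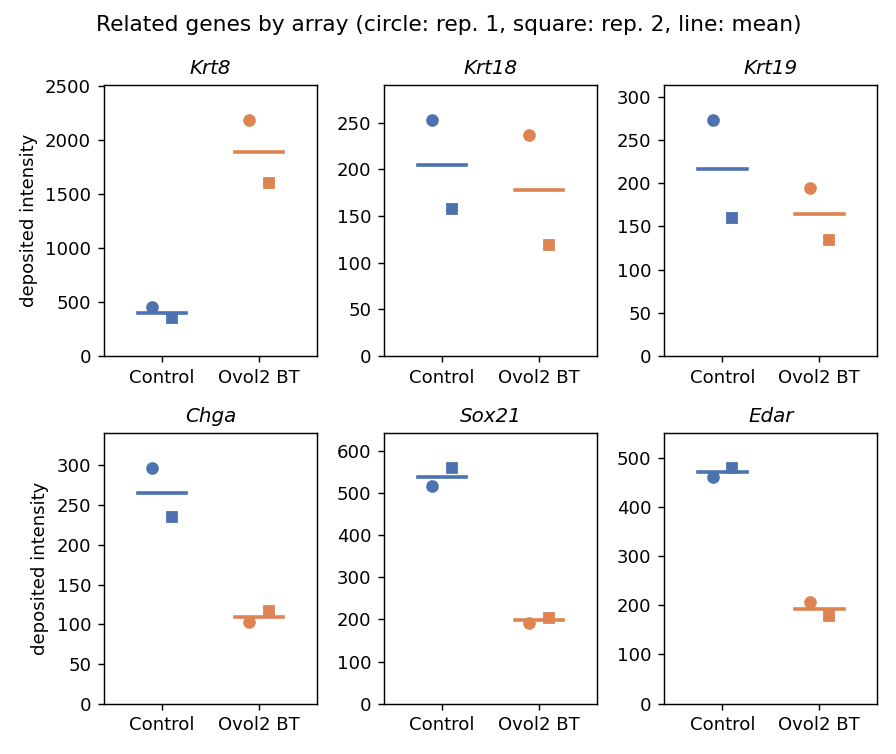
Deposited intensity (linear, each vertical axis from 0) of genes described beside the Merkel cell genes in control (blue) and Ovol2 BT (orange) skin, with 1 point per array and a line at the mean of the 2 arrays of a group. Krt8 is higher and Chga, Sox21 and Edar are lower in both Ovol2 BT arrays, while the groups overlap for Krt18 and Krt19.

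Signals that act on Merkel cell formation had lower values. All 17 tested genes of that list had lower values in Ovol2 BT, against 55.6% of all genes tested, and 12 of the 17 had groups that did not overlap, against 21.9%. Under quantile normalization or median centring the count was 16, with Eda, the ectodysplasin ligand gene, on the other side of 0. The median log2 difference was -0.29. By the test 0 were called higher and 1 was called lower, Edar, the ectodysplasin receptor, against 0.348% of all genes called lower. The shift was not particular to this list. Lower values without overlap were also found for 12 of 17 dermal papilla, 8 of 11 melanocyte and 6 of 11 basal keratinocyte markers tested. They were found for 0 of 7 sensory neuron and 0 of 11 adipocyte markers. Edar stood at 461 and 479 in the controls and at 207 and 179 in Ovol2 BT, and fell by 1.22 on the log2 scale (SE 0.21, 95% interval -1.69 to -0.76, limma adjusted p = 0.0299). Its call ended under quantile normalization (adjusted p = 0.0536) and without Ovol2 BT replicate 2 (0.0553).

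Hedgehog genes of the list had lower values without passing the test. Log2 differences were -0.61 for Ptch1, -0.27 for Gli2 and -0.12 for Smo, whose groups overlapped. Shh, the ligand made by hair placodes, stood at 499 and 531 in the controls and at 294 and 320 in Ovol2 BT (log2 difference -0.72, SE 0.21, limma adjusted p = 0.241). Gli1, a target gene of the pathway, stood at 731 and 780 in the controls and at 500 and 309 in Ovol2 BT (-0.91, SE 0.26, limma adjusted p = 0.233), and Gli1 was called without Ovol2 BT replicate 1 (-1.24, adjusted p = 0.030). Dropping the other Ovol2 BT array left Gli1 at -0.58 (limma adjusted p = 0.306). Lef1, the partner of beta-catenin, was at -1.03 (SE 0.20, limma adjusted p = 0.0651). Lef1 was called with the lowest 50% of genes left out (limma adjusted p = 0.0296). With 1 array left out the Lef1 difference ranged from -1.13 to -0.93.

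Repressors of the Merkel cell programme showed no call. Of 11 tested Notch pathway genes 0 were called by limma, 0 had an unadjusted p under 0.05 and 9 had lower values (8 under quantile normalization), with a median of -0.13. The nuclear effector Rbpj was at -0.11 and the target gene Hes1 at -0.12, while the target genes Hey1 (limma adjusted p = 0.555) and Hey2 (0.554) were at -0.41 and -0.36. Of 12 tested Polycomb genes 0 were called by limma, 0 had an unadjusted p under 0.05 and 9 had lower values (8 under either other scaling), with a median of -0.24. Among them the histone methyltransferase genes Ezh1 and Ezh2 were at 0.048 and -0.26, and their partners Eed and Suz12 at -0.24 and -0.24. Eed stood at 161 and 290 in the controls and at 159 and 205 in Ovol2 BT, so its groups overlapped.

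A list for keratinocytes of the touch dome, the patch of epidermis that houses Merkel cells, held 8 tested genes. In whole skin their values cannot be assigned to touch domes, and Itga6 is also on the basal keratinocyte list. Of the 8 tested genes 0 were called by limma and 5 had lower values, or 4 under quantile normalization, against 55.6% of all genes. At an unadjusted p under 0.05, 2 were lower (Gli1, described above, and Tnfrsf19), against 10.4% of all genes in either direction. Krt17, a keratin of touch domes and hair follicles, stood at 4623 and 4068 in the controls and at 5209 and 4577 in Ovol2 BT (log2 difference 0.17, limma adjusted p = 0.729). Tnfrsf19 was at -0.78 (limma adjusted p = 0.186), with both Ovol2 BT arrays below both controls.

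**Figure D4:**
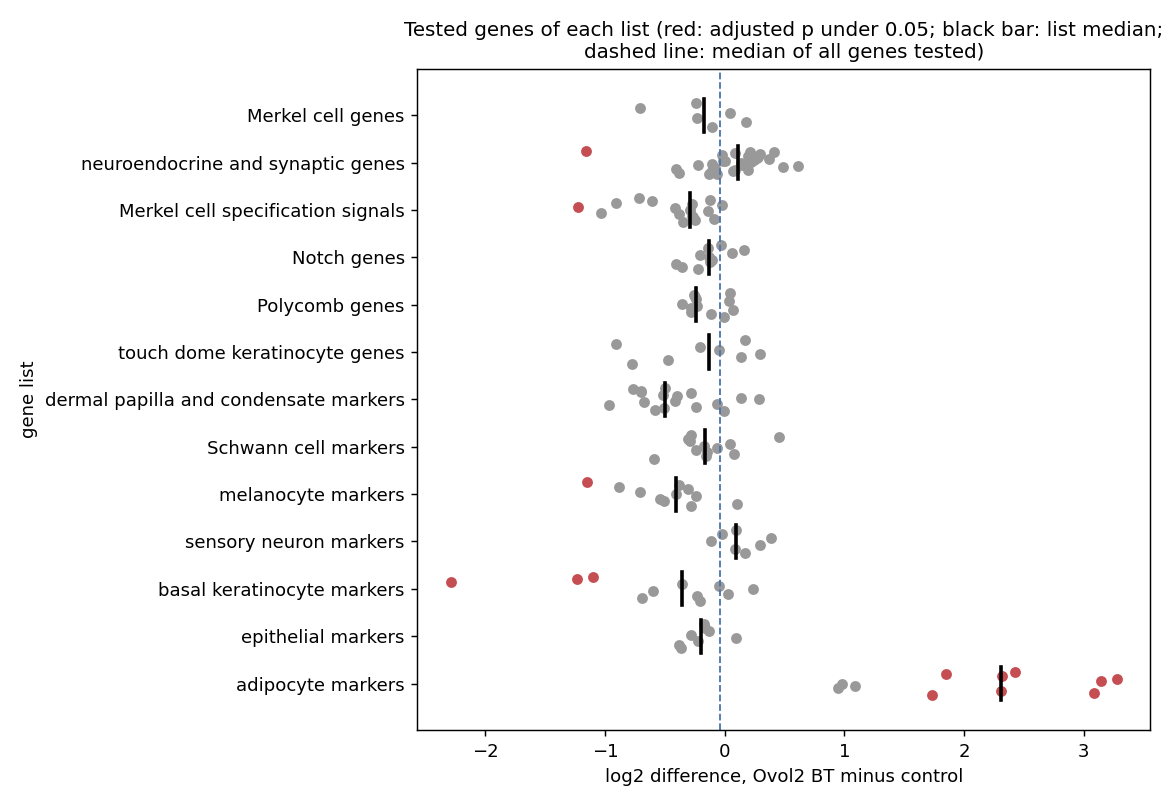
Log2 difference (Ovol2 BT minus control, horizontal axis) of every tested gene in 13 lists, with called genes in red, a black bar at each list's median and a dashed line at the median of all genes tested (-0.04). The Merkel cell genes have no called gene and a median of -0.17, the dermal papilla list a median of -0.50 with no called gene, and the adipocyte list a median of 2.31.

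Several members are also made by other cells of skin, and markers of those cells were read on the same arrays. Sox2 is expressed in dermal papillae of some hair types and in Schwann cell precursors. The dermal papilla and condensate list had lower values for 15 of its 17 tested genes, against 55.6% of all genes, with a median of -0.50. By limma 0 were called, and 8 were lower at an unadjusted p under 0.05, against 10.4% of all genes in either direction. Under either other scaling 14 of the 17 had lower values. The list's summed intensity was 14055 and 13385 in control skin, against 10939 and 9558 in Ovol2 BT, and its lowest member value was 55.9. Foxd1, a forkhead factor, was at -0.97 (limma adjusted p = 0.0556) and was called with a robust variance trend (0.0499). With 1 array left out its difference ranged from -1.11 to -0.83. Alx4 (-0.77), Prdm1 (-0.70) and Cxcr4 (-0.70) had differences of a size like that of Sox2. The part of dermal papilla RNA in the Sox2 value was not tested.

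Schwann cell markers were read in the same way. Of the list's 12 tested genes 0 were called by limma and 1 had an unadjusted p under 0.05, against 10.4% of all genes. Lower values were found for 9 (8 under quantile normalization), against 55.6% of all genes, with a median of -0.16. The list's summed intensity was 15712 and 13076 in control skin, against 12794 and 12866 in Ovol2 BT. Pmp22 gave the largest part of that sum, at 7774 and 6392 in the controls and at 6156 and 6600 in Ovol2 BT. The list's defining factor Sox10 stood at 584 and 573 in the controls and at 478 and 466 in Ovol2 BT (log2 difference -0.28, limma adjusted p = 0.649). The lowest value of the list was that of Cdh19 in Ovol2 BT replicate 2, at 1.23. Of 11 tested melanocyte markers 0 were called higher and 1 was called lower, the tyrosinase gene Tyr, against 0.348% of all genes called lower. Tyr had a log2 difference of -1.15 (limma adjusted p = 0.0327, and 0.0808 with no variance trend). The median of the melanocyte list was -0.41. The part of Schwann cell or melanocyte RNA in the Sox2 value was not tested.

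Piezo2 is also made by touch neurons, whose cell bodies lie outside skin. Of 15 sensory neuron markers 12 had a value and 7 were tested, with 0 called by limma and 0 at an unadjusted p under 0.05, and a median of 0.09. The sum of the sensory neuron markers was 1321 and 1322 in control skin, against 1548 and 1441 in Ovol2 BT.

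Krt20 is also a keratin of gut and urothelium, and Gfi1 is also made by blood cells. Of 8 tested gut and urothelial markers 0 were called by limma. At an unadjusted p under 0.05, 2 were lower, against 10.4% of all genes in either direction. The 6 others had higher values and the median was 0.11. One of the 2 lower genes was the keratin gene Krt7 (log2 difference -1.73, limma adjusted p = 0.102). The summed intensity of the list was 2071 and 1619 in control skin, against 1715 and 1397 in Ovol2 BT. Within that sum Krt7 alone stood at 695 and 329 in the controls and at 191 and 91.7 in Ovol2 BT. Of 7 tested immune cell markers 0 were called by limma and 1 was higher at an unadjusted p under 0.05, against the same 10.4%. Higher values without overlap were found for 3 of the 7, against 20.4% of all genes. The summed intensity of the immune list was 6262 and 8005 in control skin, against 6672 and 7978 in Ovol2 BT. Cpa3 gave the largest part of that sum, at 2767 and 4516 in the controls and at 2676 and 3980 in Ovol2 BT.

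Epidermal and fat markers differed between the groups as well. Of 11 tested basal keratinocyte markers, the compartment in which the transgene is driven, 0 were called higher and 3 lower (Krt5, Krt14 and Krt15). Of all genes 0.615% were called higher and 0.348% lower. The list's median log2 difference was -0.35. Krt5 and Krt14 were not called where the variances were fitted with no trend (limma adjusted p = 0.0525 and 0.0523). The list's summed intensity was 27237 and 24979 in control skin, against 15047 and 13430 in Ovol2 BT. Most of the control sum came from those 3 keratins. The list's genes that were not called ranged from -0.69 for Lama3 to 0.24 for Itgb4, with Itga6 at -0.05 and Itgb1 at 0.026. Of 8 tested general epithelial markers 0 were called by limma and 0 had an unadjusted p under 0.05, with a median of -0.20. Adipocyte markers had higher values in all 11 tested genes, 8 of them called, against 0.615% of all genes called higher. Their summed intensity was 7048 and 5526 in control skin, against 21014 and 20539 in Ovol2 BT. The part of these shifts in the Merkel cell gene values was not tested.

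The genes whose profiles over the 4 arrays were most like those of Sox2 and Atoh1 were found by the distance between log2(intensity + 16) profiles after each gene's mean was subtracted. Tested genes were ranked without those whose names have the form of predicted models or clones, such as a capital letter followed by a digit. For Sox2 the 5 nearest were Bace2 (distance 0.057), an aspartyl protease gene, Lama5 (0.070), which encodes a laminin chain of the epidermal basement membrane, Cdh3 (0.070), the P-cadherin of hair placodes, Tonsl (0.074) and Plek2 (0.084). Cdh3 stood at 1339 and 1288 in the controls and at 881 and 663 in Ovol2 BT (log2 difference -0.77, SE 0.22, limma adjusted p = 0.234), and Lama5 was at -0.77 (adjusted p = 0.248). None of these 5 was called by limma. For Atoh1 the nearest were Slc25a41 (0.020), the ribosomal protein gene Rps28 (0.029), Ccl1 (0.050), Gas5 (0.059) and Lbh (0.059), also with none called, and each had its lowest value in Ovol2 BT replicate 2. With 4 arrays such likeness is a description of these libraries.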

How the data were processed

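Skin RNA was hybridised to 4 Affymetrix arrays, 1 sample each. A deposited value is the linear intensity of a probe set. The submitters' processing notes name PLIER 2.0 and Affymetrix Expression Console 1.1.1 for the authors' processing. How background was corrected, how arrays were scaled and which genome build was used is not given in the sources used here. Of 35557 probe sets, 21789 name 1 gene (21698 matched by Entrez ID to the GRCm38.p6 gene table, 0 symbols changed), 1621 several and 12147 none by the annotation used.

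For each gene the probe set with the highest mean was tested as log2(intensity + 16), without further normalization, after the lowest 25% (4985 genes) were left out. A group term was fitted in R 4.3.3 with lmFit and eBayes of limma 3.58.1 (trended variances, two-sided, Benjamini-Hochberg over all genes; 2 residual and 6.95 prior degrees of freedom). On simulated data with the fitted variances it called 1.7% of genes changed 1.5-fold, 28.2% at 2-fold and 96.9% at 4-fold. A missing call thus does not show that a gene was unchanged. With 2 arrays a group, p-values rest on the spread between these arrays and, more, on the variance trend over all genes. The number of arrays limits the precision. Each array pooled 2 mice, so the spread between single mice was not measured.

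Members, gene lists and tests were chosen with earlier results of these data known. Named genes are all members and relatives, up to 4 of the called or smallest-p genes per list, and the 5 nearest to Sox2 and Atoh1; not all were described. Groups came from the sample titles. Promoters are the 250 bases before RefSeq starts (GRCm38.p6). Windows of members and other described genes on a single chromosome were left out, and 5 members had a window that could be printed. Alternatives covered pseudocount, filter, normalization, variance trend, probe sets, replicate block and each array left out. Summaries used Python 3.11.15, pandas 2.3.3 and matplotlib 3.10.9.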

Additional observations from a re-analysis of the deposited data

How the results depend on the processing

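The 8 Merkel cell genes were recomputed under 103 combinations of gene and alternative. In 100 the direction and the side of the threshold were as reported. Isl1 changed sign in 2 others, to -0.041 under quantile normalization and to -0.0089 without Ovol2 BT replicate 1. The remaining 1 was Sox2 with the replicate number as a block, called at -0.71 (limma adjusted p = 0.0343; 0.164 to 0.464 under the other alternatives). The labels do not say that equal numbers share a litter or day, and arrays of equal number deviated from their group means with r = 0.41 over genes. Under that block 652 genes were called in place of 144 (315 higher, 337 lower). Genes that had missed the threshold and were called lower under the block included Lef1 (limma adjusted p = 0.00244), Foxd1 (0.00553), Tnfrsf19 (0.0169), Gli1 (0.0241), Shh (0.0259), Cxcr4 (0.0270), Alx4 (0.0299) and Prdm1 (0.0483). When each array was dropped in turn, with the lone array of its group assumed to vary like the others, 209 to 366 were called, among them 366 without control replicate 1, and 249 when Ovol2 BT replicate 2 was dropped. The members' median difference, -0.22, was -0.27 with 1 added, -0.14 with 64 added, -0.27 under quantile normalization, -0.17 with the lowest 25% of genes left out, -0.71 with the lowest 50% left out, where Sox2 alone was kept, and -0.21 to -0.13 with 1 array left out. Signs of genes near 0 also changed when 1 array was dropped. The values ranged from -0.0089 to 0.090 for Isl1, from -0.68 to 0.23 for Krt18, from -0.70 to 0.012 for Krt19, from -0.56 to 0.045 for Ezh2 and from -0.51 to 0.030 for Suz12. The cause was not tested for these changes. Dim signal limits what Krt20 and Pou4f3 can show. Isl1, at 69.6 to 77.7, lay just above the filter limit of about 67.4, so the same limit bears on it.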
